A study of Mus musculus with 9 samples.

Results

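Among mouse bone marrow cells sorted as MEP (megakaryocyte-erythroid progenitors), cells with the Jak2 mutation V617F were compared with wild-type cells taken at the same time. Whole gene expression was read in 6 of the series' 9 libraries, chosen by the genotype and time in their labels, and all 17769 genes of the deposited count table were used, of which 13608 passed the filter on low counts and were tested. The group named VF carried SclCre and V617F, the group named WT was wild type, and both were on the C57BL/6N background and were sampled 12 weeks after tamoxifen, given by injection on 5 days in a row. SclCre is a recombinase named after Scl, also called Tal1, a transcription factor gene of blood stem and progenitor cells. The labels do not say how the V617F allele was built, whether it was present in 1 or both copies, or whether the WT mice carried SclCre. The remaining 3 libraries, the group named E12, came from mice with SclCre and a Jak2 exon 12 mutation on the same background at 6 weeks. E12 libraries entered the fits for the estimate of spread, and their values are given beside a few genes only. The labels do not say that libraries of 1 group came from separate mice, so a p-value here speaks only of how far these samples spread, and that spread may be technical.

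Jak2 is a kinase held on the inside of receptors for hormone-like proteins such as erythropoietin (receptor gene Epor) and the granulocyte factor G-CSF (Csf3r). When the ligand binds, Jak2 phosphorylates STAT proteins, above all STAT5 in this lineage, which enter the nucleus and switch on genes of survival and growth as well as the inhibitors that end the signal. V617F leaves the kinase active with little or no ligand and is the most common mutation in human myeloproliferative neoplasms, in which red cells, platelets or granulocytes are made in excess. MEP stand where the paths to red cells and to megakaryocytes, which shed platelets, divide.

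The 6 libraries differed in more than genotype. Total counts were 19256431 to 21331168 in VF and 33838681 to 39736096 in WT, and WT libraries carry facility numbers of another series than VF, so library series and genotype cannot be told apart. Genes under 1000 bases held 8.24% to 8.97% of the counts in VF against 27.9%, 14.1% and 11.2% in WT 50, WT 51 and WT 52, and 727 tested genes had no count in any WT library against 4 with none in VF. Genes with no WT count passed the filter through the other groups alone. In spite of their larger totals, WT libraries had no count for 27.2% to 30.1% of the genes in the table, against 10.7% to 12.4% in VF. Xist, expressed from the inactive X of female cells, was at 553, 238 and 1.58 CPM (counts scaled to library size) in VF 1, VF 2 and VF 3, while the Y-linked gene Ddx3y was at 35.9, 54.1 and 65.6 CPM in the same order. VF 1 and VF 2 thus held transcripts of both kinds, whereas in VF 3 and the WT libraries Xist was at most 1.9 CPM beside Y-linked transcripts. The part of these differences in the results below was not tested. Counts of called genes were therefore also taken without WT 50 and with VF 3 as the only VF library, the lone library then being assumed to vary like those of the other groups.

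Fold changes followed gene length. In edgeR's quasi-likelihood fit of the counts as deposited, the median log2 fold change, VF over WT, was -1.77 for the 1228 genes under 1000 bases, -0.79 for the 3075 genes from 1000 to under 2000 bases, 0.63 for the 6910 genes from 2000 to under 5000 bases and 1.22 for the 2395 genes of 5000 bases or more. A second fit took out, in each library, the smooth trend of expression with length by means of offsets, after which the 4 medians were -0.18, -0.22, -0.20 and -0.18. Between VF and E12 the medians on the deposited counts were 0.03, 0.04, 0.02 and 0.16. Comparisons with E12 below are from the fit of the deposited counts alone unless the offsets are named. A gene is called higher or lower below when it had an adjusted p under 0.05 in the same direction in both fits. On the counts as deposited 6612 genes (48.6%) passed, 3770 higher (27.7%) and 2842 lower (20.9%), so that 57.0% of the calls were higher. With the offsets 6368 genes (46.8%) passed, 2487 higher (18.3%) and 3881 lower (28.5%), so that 39.1% were higher, and the median over all tested genes went from 0.36 to -0.20 (log2). The fits shared 4435 calls (32.6%), 2146 higher (15.8%) and 2289 lower (16.8%), and these percentages are the background for the counts of gene groups that follow. They still varied with length. From the shortest to the longest class, 29.6%, 32.8%, 11.8% and 4.30% of genes were lower in both fits, and 6.68%, 13.3%, 17.9% and 17.3% higher. A list of short or of long genes is thus to be read beside its class. The fits called 54 genes in opposite directions, all of them higher on the deposited counts and lower with the offsets. VF and WT libraries did not overlap for 62.7% of the tested genes, with VF above WT for 39.7% and below for 23%.

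**Figure D1:**
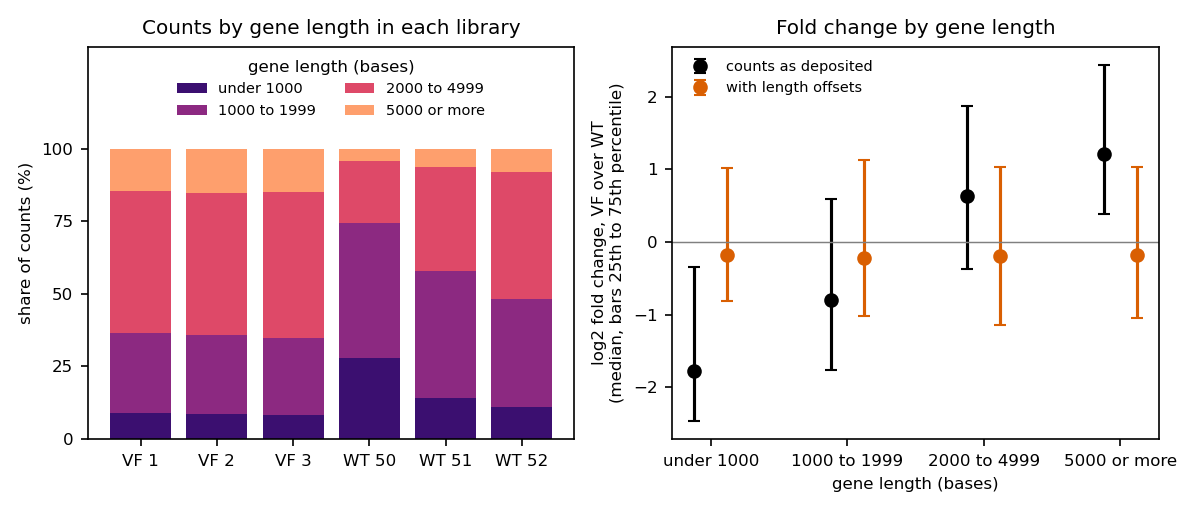
Left, share of each library's counts (percent) held by genes of 4 length classes in the 3 VF and 3 WT libraries. Right, log2 fold change of VF over WT by length class (points, medians; bars, 25th to 75th percentile) on the counts as deposited and with length offsets. The deposited medians climb from -1.77 to 1.22 with length, and with offsets all 4 lie between -0.22 and -0.18.

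**Figure D2:**
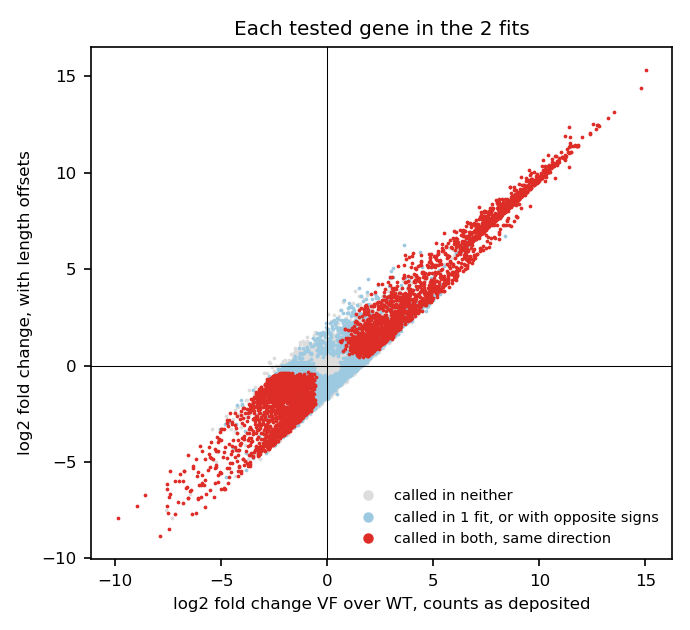
Each point is 1 of 13608 tested genes, with its log2 fold change of VF over WT on the counts as deposited on the x axis and with length offsets on the y axis. Red points are the 4435 genes called in the same direction in both fits, blue points those called in 1 fit or with opposite signs, grey points those called in neither.

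The totals depended on the libraries used. Without WT 50 they were 2979 higher and 3261 lower, and with VF 3 as the only VF library 389 and 97. In the latter fit all 4426 genes of the 4435 called that could still be tested had the same sign as with 3 VF libraries, a count that VF 3's own part in the calls helps to fix.

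Among the 15 genes with the largest rise in VF were several receptors and surface proteins. Echdc2, an enoyl-CoA hydratase domain gene (chromosome 4, 108165436 to 108179308, GRCm38), stood at 158, 163 and 159 CPM in VF 1, 2 and 3 and had no count in any WT library, so that, with 3 counts assumed over the whole WT group, it was at least 4250-fold higher (adjusted p = 4.9e-05). Such bounds and the intervals below cover counting error only. Itgb3, the integrin beta chain of the platelet fibrinogen receptor, stood at 157, 116 and 139 CPM with no WT count, at least 3640-fold higher. Tek, the angiopoietin receptor of stem cells and vessels, stood at 49.2, 58.7 and 59.6 CPM with no WT count, at least 1480-fold higher. In each of these 3 genes the VF libraries lay close together, and E12 lay between VF and WT, at 61.5, 19.2 and 15.6 CPM (mean, n = 3). The same pattern of no WT count was found for the lipoprotein receptor Vldlr (at least 1240-fold), the glutamate receptor chain Gria3 (at least 933-fold), the amino acid transporter Slc7a8 (at least 893-fold), the interleukin 6 receptor Il6ra (at least 861-fold), the phosphodiesterase Pde10a (at least 854-fold), the inhibitory receptor Lag3 (at least 746-fold), the phagocytosis checkpoint receptor Sirpa (at least 680-fold) and F630111L10Rik (at least 695-fold). The interleukin 4 receptor chain Il4ra, the scavenger receptor Scarf1 and the macrophage pore protein Mpeg1 each had 1 count over the 3 WT libraries, with ratios of 3770 (676 to 149000), 3410 (611 to 135000) and 2400 (431 to 95000) (exact 95% intervals for counting error).

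Among the 15 genes with the largest fall were globins and other red cell genes. Rhd, the Rh blood group protein (chromosome 4, 134864536 to 134896172), stood at 6.08, 23.2 and 16.5 CPM in VF and 4469.7, 1901 and 1718 CPM in WT (log2 fold change -7.46, adjusted p = 0.00025, and -6.81 with the offsets, adjusted p = 0.00013). Spon2, a secreted matrix protein, stood at 1.95, 2.35 and 3.85 against 209, 298 and 260.03 CPM (log2 fold change -6.55, SE 0.42, adjusted p = 6.7e-05). The groups lay far apart in both genes, and only for Rhd was WT 50 well above the other WT libraries. Claudin Cldn13 (log2 fold change -6.92), the LIM protein Crip2 (-6.81), the metallothionein Mt2 (-6.54), the tetraspanin Tspan8 (-6.11), the disulfide isomerase Pdia2 (-6.59), Asb17 (-7.57) and Gml2 (-8.58) were others. Alpha globin Hba-a1, at 11.7, 17.4 and 16.99 against 3136, 902 and 956 CPM (log2 fold change -6.76, adjusted p = 0.0064), is uncertain as a single gene because Hba-a2 is a near-identical copy that can share its reads. Asb17os overlaps Asb17 by name as an opposite strand transcript and, since the library method keeps no strand, its reads cannot be told from those of Asb17.

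**Figure D3:**
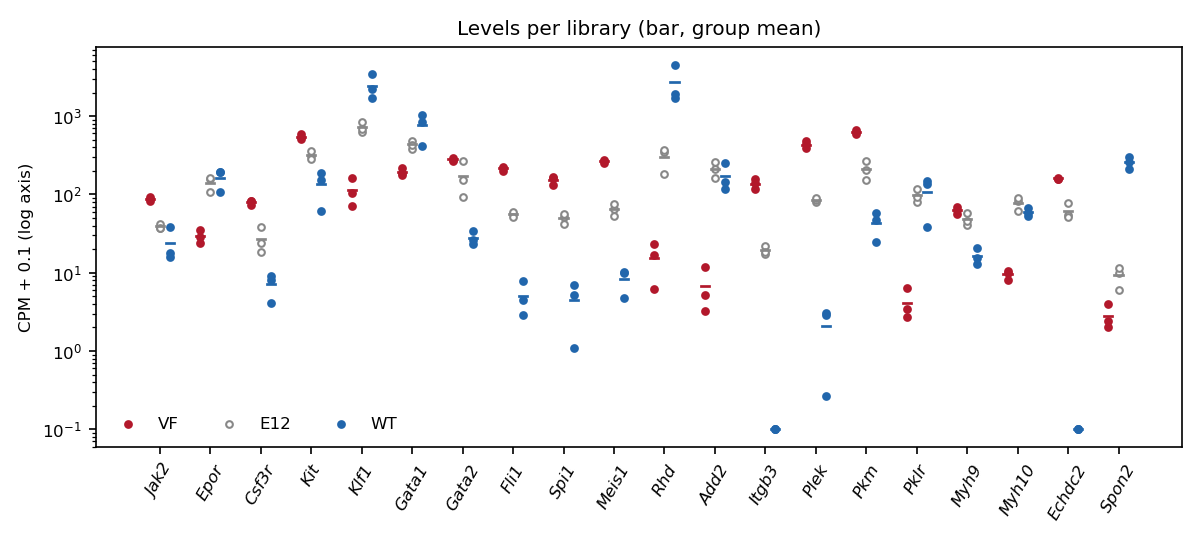
CPM plus 0.1 on a log axis for 20 genes described in the text, 1 point per library (red, VF; open grey, E12; blue, WT), with a bar at each group mean. VF and WT libraries do not overlap in any of the 20 genes, and points at 0.1 stand for libraries with no count.

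Defining markers were read to check the label. Summed over 10 erythroid markers (among them Klf1, Epor, Car1, Rhd, Tfrc, Ermap and globins), CPM were 269, 619 and 389.5 in VF and 23416, 12129 and 10217 in WT. Summed over 8 megakaryocyte markers, among them Pf4 and Itga2b, they were 2179.5, 1856 and 1630.5 against 172, 59.4 and 90.5, and over 6 markers of stem and multipotent cells, among them Cd34 and Flt3, 837, 806 and 799 against 18.1, 5.61 and 4.79. The VF libraries thus had megakaryocyte and stem cell markers and low erythroid ones, and the WT libraries erythroid markers and low megakaryocyte and stem cell ones. In bulk samples fewer cells of a type and less RNA per cell cannot be told apart. Of the 6 stem cell markers, Procr and Mecom had no count in any WT library. In each VF library the largest sum of any marker set was that of neutrophils and monocytes. Neutrophil and monocyte markers (9 genes) summed to 9589, 6891 and 12919 CPM in VF and 4400.5, 1092 and 253 in WT. Of these sums the granule enzyme Mpo held 6613, 4963 and 9088 CPM in VF and 74.4, 226 and 86.9 in WT, while S100a8, S100a9 and Ly6g, genes of mature neutrophils, had log2 fold changes of -2.20, -1.99 and -2.91 and did not pass. Mast cell and basophil markers (6 genes) to 562, 607 and 649 and 155, 82.9 and 49.1, and B cell markers (7 genes) to 128, 144 and 254 and 3771, 802 and 328. T and NK cell markers (5 genes in the table) summed to 510.03, 489 and 569 and 1130.3, 274 and 126, nearly all of it from the granule gene Nkg7, and dendritic and macrophage markers (5 genes) to 169, 117 and 233 and 114, 42.4 and 16.3. WT 50 held the most counts of every one of these other lineages among the WT libraries. The part of these cells in the results was not tested.

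Cytokine receptors that signal through Jak2 differed in both directions, with Epor lower and Csf3r higher in VF. Of 17 tested, 8 were called higher and 1 lower, with a median log2 fold change of 3.06 (1.89 with the offsets) against 0.36 (-0.20) for all tested genes. Epor stood at 23.6, 34.9 and 28.5 CPM in VF and 107, 192 and 193 CPM in WT (log2 fold change -2.50, SE 0.32, adjusted p = 0.00063), without overlap. Csf3r stood at 82.97, 73.6 and 82.2 against 7.90, 4.02 and 9.08 CPM (log2 fold change 3.51, adjusted p = 0.00041, and 2.32 with the offsets, adjusted p = 0.0016), again without overlap. The leukemia inhibitory factor receptor Lifr stood at 6.11, 4.58 and 6.12 against 0.0552, 0.0311 and 0 CPM, a ratio of 223 (61.3 to 1840) from 2 WT counts. Against E12 on the deposited counts, Epor was the 1 member that differed, with a log2 fold change of -2.28 (adjusted p = 0.011). Of all tested genes 3.21% passed in that comparison, which shares the VF libraries and differs in weeks after tamoxifen. With the offsets Csf3r differed from E12 as well, with a log2 fold change of 1.52 (adjusted p = 0.036). Without WT 50 the counts were 11 higher and 2 lower, and with VF 3 as the only VF library 4 and 0.

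Other receptors of blood progenitors were higher where they were called, 11 of 25 with 0 lower (median 2.88, 1.29 with the offsets). Kit, the receptor of stem cell factor and a surface marker used to sort progenitors, stood at 503, 545 and 587 against 60.8, 154 and 188 CPM (log2 fold change 2.02, adjusted p = 0.0036, and 0.75 with the offsets, adjusted p = 0.033). The TGF-beta receptor chain Tgfbr2 stood at 59.3, 51.6 and 57.7 against 4.03, 6.79 and 4.66 CPM (log2 fold change 3.44, adjusted p = 0.00017, and 2.10 with the offsets, adjusted p = 0.00061). Tie1, a partner of Tek, stood at 38.4, 44.2 and 49.1 against 0.331, 0 and 0 CPM (log2 fold change 8.92, SE 1.07, adjusted p = 0.00049). None of the 3 overlapped between groups, and the gap was narrowest for Kit, whose call with the offsets was lost without any single E12 or VF library (adjusted p up to 0.12). With VF 3 as the only VF library 5 were called higher.

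Downstream of the receptors, Jak2 itself (chromosome 19, 29251803 to 29313095) stood at 86.8, 92.5 and 83.1 CPM in VF and 15.7, 17.6 and 38.6 CPM in WT (log2 fold change 1.87, adjusted p = 0.0028, and 0.61 with the offsets, adjusted p = 0.037). The groups did not overlap and WT 52 was the nearest, but the call with the offsets was lost without any single library other than WT 52 (adjusted p up to 0.16). Of 11 JAK and STAT genes 4 were called higher and 0 lower, where the deposited counts alone called 9 higher. Jak3, the kinase of the common gamma chain, stood at 77.4, 72.3 and 81.02 against 3.70, 4.83 and 5.27 CPM (log2 fold change 4.06, adjusted p = 0.00015, and 2.88 with the offsets, adjusted p = 0.00017). Stat5b had a log2 fold change of 1.51 on the deposited counts and 0.16 with the offsets (adjusted p = 0.48), and Stat5a 0.73 and -0.40 (adjusted p = 0.084), so neither was called in both. Within a library, Stat5b made up 39.98% ± 0.888 of the STAT5 counts per kilobase in VF and 27.9% ± 4.33 in WT. Such shares keep each library's length trend, and Stat5b is the longer gene (5442 bases, Stat5a 3888). With only VF and WT in the fits 2 JAK and STAT genes were called higher, and with VF 3 as the only VF library 1.

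Inhibitors and targets of the pathway were higher where they were called. Of 19 inhibitors 5 were called higher and 0 lower (median 1.24, 0.53 with the offsets). Socs3, which binds receptors and blocks the kinase, stood at 9.68, 7.83 and 11.2 CPM with no WT count, at least 252-fold higher (adjusted p = 0.0005). Socs1 stood at 11.2, 7.68 and 10.6 against 0, 0.156 and 0.476 CPM (log2 fold change 5.45, SE 0.94, adjusted p = 0.0021). Socs2 stood at 28.1, 28.4 and 27.5 against 3.64, 7.19 and 2.48 CPM (log2 fold change 2.65, adjusted p = 0.0027, and 1.91 with the offsets, adjusted p = 0.016). All 3 were low but without overlap. Cish, the classic feedback gene of STAT5, stood at 15.6, 14.2 and 19.1 against 1.05, 10.96 and 0 CPM and did not pass (log2 fold change 2.01, adjusted p = 0.22, and adjusted p = 0.018 without WT 51). The E3 ligase Cbl, which marks active receptors for breakdown, and the phosphatase Ptprc (CD45) had log2 fold changes of 3.32 and 3.31 (2.12 and 1.98 with the offsets). Without WT 50 6 inhibitors were called higher and 4 lower, and with VF 3 alone 2 and 0.

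Of 16 STAT5 target genes 6 were called higher and 0 lower (median 1.20, 1.17 with the offsets). The survival kinase Pim1 stood at 10.6, 9.76 and 11.6 against 1.27, 0.529 and 0.0340 CPM (log2 fold change 4.15, adjusted p = 0.0064, and 4.35 with the offsets, adjusted p = 0.0064), Pim2 at 75.4, 38.1 and 62.2 against 12.3, 19.3 and 12.5 CPM (log2 fold change 1.99, adjusted p = 0.0015, and 1.89 with the offsets, adjusted p = 0.0014). Pim3 stood at 29.9, 27.9 and 29.8 against 3.48, 5.92 and 11.9 CPM (log2 fold change 2.04, adjusted p = 0.0044, and 1.70 with the offsets, adjusted p = 0.0011). None of the 3 overlapped between groups. Bcl2l1, the survival protein BCL-XL, stood at 58.5, 61.2 and 65.8 against 0.110, 7.01 and 12.6 CPM (log2 fold change 3.22, adjusted p = 0.026), and its call in both fits was lost without any single E12 or VF library or WT 51 (adjusted p with the offsets up to 0.086). Of 12 ERK pathway feedback genes 6 were called higher and 0 lower (median 2.94, 2.39 with the offsets). Fos and Egr1, immediate early genes that are also induced by handling of cells, stood at 151, 149.9 and 20.7 and 51.3, 40.6 and 18.4 CPM in VF against 3.98, 11.9 and 8.81 and 3.04, 3.36 and 4.62 CPM in WT. VF 3 was well below VF 1 and VF 2 in both. Neither list had a member higher than in E12, and 1 STAT5 target gene was lower. When VF 3 stood alone for VF, the STAT5 list had 1 and the ERK list 0 members called higher.

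Transcription factors of red cells, megakaryocytes and stem cells differed between VF and WT. Of 22 erythroid factors 9 were called lower and 1 higher in both fits, but the deposited counts alone called 6 higher and 9 lower, and limma on the deposited log2 levels 7 higher and 6 lower. Over all 13608 tested genes limma on these levels called 3475 higher and 3301 lower. That is the background for its list counts here and below. Klf1, which switches on adult globin and other red cell genes, stood at 70.9, 163 and 104 against 3413, 2235 and 1691 CPM (log2 fold change -4.44, SE 0.45, adjusted p = 0.00027). Gata1, the master factor of the red cell and megakaryocyte lines, stood at 179, 215 and 186 against 421, 1025 and 836 CPM (log2 fold change -1.97, adjusted p = 0.0023, and -1.85 with the offsets, adjusted p = 0.00026). Its partner repressor Gfi1b stood at 204, 268 and 196 against 864, 1223 and 1177 CPM (log2 fold change -2.29, adjusted p = 0.00059, and -2.11 with the offsets, adjusted p = 0.00011). VF lay below WT in every library of these 3. With limma on the deposited log2 levels, Klf1 passed, while the log2 fold change of Gata1 was -0.74 (adjusted p = 0.17), that of Gfi1b -0.97 (adjusted p = 0.059) and that of Klf13 -0.50 (adjusted p = 0.15). Tal1, the Scl gene itself, stood at 96.4, 113 and 101 against 56.04, 53.2 and 46.04 CPM and changed sign with the offsets (log2 fold change 0.998, then -0.30). Klf13 fell by both fits although its gene is long (6396 bases), with 145, 182 and 160.2 against 516, 462 and 487 CPM. Against E12, 5 of the 22 factors were lower in VF, among them Klf1 (log2 fold change -2.67, adjusted p = 0.015).

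Factors of megakaryocytes and stem cells were called higher in 12 of 24 and lower in 1 (median 2.45, 1.42 with the offsets). Meis1, a homeobox factor of stem cells, stood at 279, 255 and 264 against 4.58, 9.93 and 10.1 CPM (log2 fold change 5.01, adjusted p = 0.00011, and 4.07 with the offsets, adjusted p = 3.8e-05). The ETS factor Fli1, needed for megakaryocytes, stood at 225, 197 and 220.02 against 4.42, 2.74 and 7.79 CPM (log2 fold change 5.42, adjusted p = 0.00012, and 4.58 with the offsets, adjusted p = 5.3e-05). No VF library overlapped with WT in either gene. Mecom (EVI1), a stem cell factor, had 20.3, 16.3 and 14.8 CPM in VF and no WT count, at least 456-fold higher. Against E12, Meis1, Fli1 and Mecom were also higher (log2 fold changes 2.04, 1.94 and 2.22). Of 9 tested Hox genes, homeobox factors of early progenitors, 5 were called higher and 0 lower, 9 higher without WT 50. Of the 9, 3 had no count in any WT library, Hoxb2, Hoxb3 and Hoxb5, and all 3 were among the 5. Their VF means were 3.46, 1.14 and 1.34 CPM, and they passed the filter through the other groups alone. Hoxa9 stood at 39.9, 43.4 and 36.9 against 2.98, 10.7 and 12.4 CPM. Of 15 granulocyte and monocyte factors 6 were called higher and 0 lower, 11 higher without WT 50, beside the neutrophil and monocyte marker sum that was larger in VF mainly through Mpo. Among the 6, Gfi1 had no WT count. Spi1 (PU.1), the ETS factor that opposes Gata1, stood at 165, 131 and 164 against 0.994, 5.08 and 6.90 CPM (log2 fold change 5.13, adjusted p = 0.00049, and 5.70 with the offsets, adjusted p = 0.00067). Cebpd stood at 17.6, 10.1 and 15.7 against 0.552, 0.903 and 0.612 CPM. In the fit with VF 3 alone, these lists had 4, 1 and 3 members called higher, and the erythroid factors 1 lower.

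Per kilobase within a library, members of a factor family differed in share. Gata2, the earlier GATA factor, made up 44.8% ± 2.32 of the GATA counts in VF and 2.53% ± 1.70 in WT (mean ± SD, n = 3), and Gata1 52.8% ± 2.60 and 96.8% ± 1.97. Among ETS factors Fli1 made up 23.3% ± 0.331 and 5.82% ± 3.61, and Spi1 39.6% ± 2.003 and 13.9% ± 10.6. The shares did not overlap between VF and WT, and with 3 libraries against 3 an exact two-sided permutation test cannot go below p = 0.1, the value all 4 had. Of 56 shares in 17 families 39 did not overlap, where the CPM of 62.7% of all tested genes did not overlap. The shares of a family make up its whole in each library, so in a pair both members overlap or neither does. The 56 shares are thus not separate results, and their count cannot be set directly beside that percentage of single genes. None of the shares changed direction when raw counts replaced counts per kilobase. In a family with only a pair of members, dividing by length keeps the order of the libraries, so that comparison says little there. Counts per kilobase also keep each library's own trend with length.

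Platelet genes were higher in VF. Of 25 tested platelet surface receptors 16 were called higher and 0 lower (median 4.09 with genes at 0 in WT at their bound), and of 19 genes of granule cargo 16 and 0 (median 4.72 at the bounds, 6.04 as fitted). The thrombin receptor F2r, known from human rather than mouse platelets, stood at 328, 369 and 349.9 against 6.07, 9.03 and 27.5 CPM (log2 fold change 4.62, adjusted p = 0.00049, and 3.87 with the offsets, adjusted p = 9e-05). F2rl2 stood at 144, 128 and 120.4 against 5.25, 1.46 and 5.51 CPM (log2 fold change 5.01, adjusted p = 0.00023, and 4.40 with the offsets, adjusted p = 0.00049). Gp5, of the von Willebrand factor receptor complex, stood at 160.2, 174 and 132 against 12.7, 6.85 and 3.33 CPM (log2 fold change 4.35, adjusted p = 0.00035, and 3.84 with the offsets, adjusted p = 0.0017). The receptors did not overlap between groups, and WT values scattered by several-fold. In the cargo list, Plek is a substrate of protein kinase C in the platelet cytosol and not itself stored cargo. Plek stood at 475, 434 and 389.9 against 0.166, 2.99 and 2.82 CPM (log2 fold change 7.73, adjusted p = 0.00036, and 6.64 with the offsets, adjusted p = 0.00016). Angpt1, a ligand of Tek, stood at 267, 282 and 234 against 13.97, 6.17 and 9.62 CPM (log2 fold change 4.72, adjusted p = 0.00013, and 3.399 with the offsets, adjusted p = 0.0004). The chemokine precursor Ppbp had 16.5, 14.1 and 9.33 CPM and no WT count, at least 356-fold higher. VF 1 was the highest VF library for Plek and Ppbp. Against E12, 4 of the 25 receptors and 4 of the 19 cargo genes were higher and none lower, among them Itgb3, F2rl2, Ppbp and Angpt1 (log2 fold changes 2.84, 2.63, 3.72 and 1.70).

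Genes that build granules and the cell's scaffold were higher in part. Of 26 genes of granule formation 9 were called higher and 0 lower (5 higher without VF 1). Slc18a2, which loads serotonin into dense granules, stood at 215, 226 and 226 against 6.79, 8.60 and 4.22 CPM (log2 fold change 5.09, adjusted p = 9.5e-05, and 3.88 with the offsets, adjusted p = 0.00024). Slc35d3, needed for dense granules, stood at 65.6, 35.8 and 55.5 against 0, 0 and 0.170 CPM (log2 fold change 9.62, SE 0.90, adjusted p = 0.0002). Rab27b, the granule transport GTPase of platelets, made up 33.4% ± 1.96 of the Rab27 counts per kilobase in VF and 13.97% ± 7.68 in WT. Of 27 cytoskeletal genes 12 were called higher and 2 lower (1 lower without any single VF library). The focal adhesion protein Zyx stood at 312, 314 and 321 against 14.1, 16.1 and 16.5 CPM (log2 fold change 4.34, adjusted p = 6.7e-05, and 3.16 with the offsets, adjusted p = 7.5e-05). The small GTPase Rap1b stood at 418, 323 and 283 against 9.66, 23.98 and 35.3 CPM (log2 fold change 3.89, adjusted p = 0.00048, and 3.998 with the offsets, adjusted p = 0.0001). Both were far apart between groups. Nonmuscle myosin changed its main chain, with Myh9 at 87.5% ± 0.833 of the family per kilobase in VF and 22.3% ± 4.34 in WT. Myh10 fell, at 8.06, 10.4 and 9.89 against 56.98, 52.4 and 67.8 CPM (log2 fold change -2.64, adjusted p = 0.0002, and -4.08 with the offsets, adjusted p = 4.2e-05), while Myh9 was not called in both fits (log2 fold change 1.97, then 0.49 with the offsets, adjusted p = 0.18, and 0.002 without WT 50). With VF 3 as the only VF library the receptor, cargo, formation and cytoskeleton lists had 6, 5, 3 and 3 members called higher.

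**Figure D4:**
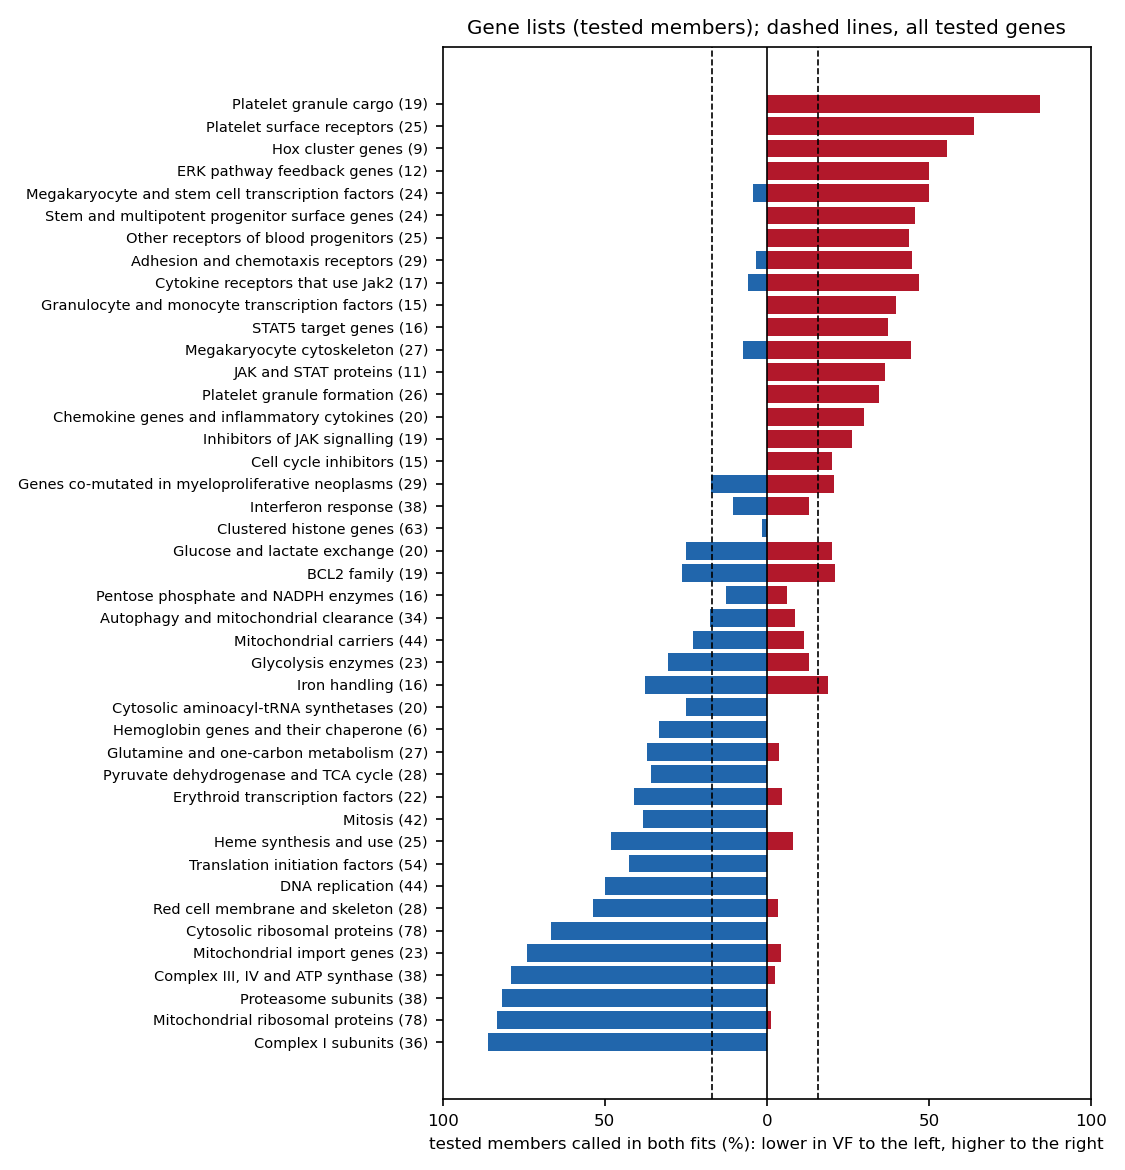
Percent of the tested members (number in brackets) of each of 43 gene lists called in both fits, lower in VF to the left (blue) and higher to the right (red). Dashed lines mark the same percentages over all tested genes, 16.8% lower and 15.8% higher.

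Red cell genes went the other way. Of 28 tested genes of the red cell membrane and its skeleton 15 were called lower and 1 higher (median -1.89, -2.26 with the offsets). Add2, the adducin that caps actin at junctions of the membrane skeleton, stood at 3.11, 11.8 and 5.11 against 116, 143 and 255 CPM (log2 fold change -4.68, adjusted p = 0.0005, and -6.10 with the offsets, adjusted p = 0.00011). Ermap, an erythroid membrane protein, stood at 7.35, 41.4 and 18.98 against 1592, 582 and 562 CPM (log2 fold change -5.34, adjusted p = 0.00081, and -6.80 with the offsets, adjusted p = 0.0005). No VF library reached a WT library in either gene, and VF 2 was the highest VF library in both. In Rhd, Car1, Klf1 and Epor, too, VF 2 was the highest of the VF libraries. Against E12, 13 of the 28 were lower in VF and none higher, among them Add2 (log2 fold change -4.98) and Ermap (-4.38).

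Heme and iron genes fell in part. Of 25 genes of heme synthesis and use 12 were called lower and 2 higher (1 higher without any single E12 or VF library; median -2.13, -1.86 with the offsets). Uros, an enzyme of the path, stood at 30.98, 31.6 and 33.05 against 122, 189 and 198 CPM (log2 fold change -2.41, adjusted p = 0.00031, and -2.87 with the offsets, adjusted p = 4.2e-05). Slc25a38, the carrier that brings glycine for heme into mitochondria, stood at 21.8, 32.9 and 24.9 against 114, 224 and 213 CPM (log2 fold change -2.79, adjusted p = 0.00041, and -2.35 with the offsets, adjusted p = 0.00072). Neither gene overlapped between groups. VF lay within a narrow range for Uros, while for Slc25a38 VF 2 was the highest VF library. The first enzyme came in both its forms. Alas1, the general form, stood at 170.2, 119 and 224 against 11.3, 57.4 and 64.6 CPM (log2 fold change 1.94, adjusted p = 0.018; the call in both fits was lost without any single E12 or VF library or WT 52, with adjusted p up to 0.18 with the offsets), and Alas2, the red cell form, at 1.35, 1.38 and 1.95 against 0.331, 20.5 and 1.19 CPM, which did not pass (adjusted p = 0.29). Of 16 iron genes 6 were called lower and 3 higher. The iron exporter Slc40a1 stood at 6.98, 11.2 and 13.7 against 27.4, 59.3 and 145 CPM (log2 fold change -2.86, adjusted p = 0.0039, and -3.64 with the offsets, adjusted p = 0.00029). Hfe, which binds the transferrin receptor, stood at 10.1, 11.6 and 13.6 against 0, 0.0623 and 0 CPM, a ratio of 466 (129 to 3850) from 2 WT counts. The transferrin receptor Tfrc stood at 74.5, 77.6 and 73.8 against 145, 89.6 and 119.8 CPM and passed in the second fit alone (log2 fold change -0.65, adjusted p = 0.12, and -2.05 with the offsets, adjusted p = 0.0018), while E12 was at 1208 CPM. Of 6 tested hemoglobin genes and Ahsp the deposited counts called 6 lower and both fits 2, with 4 without E12 1 and 6 without E12 2 or E12 5. The 2 were Hba-a1 and Hba-a2, whose counts were nearly the same. Hbb-b1 and Hbb-bs, both in the erythroid marker sum, also had nearly the same counts (9072 and 9067 in WT). Neither pair counts as separate measurements. When VF 3 stood alone for VF, 5 membrane, 3 heme and 0 iron genes were called lower.

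Promoters of 4 genes named in the text, Pklr (pyruvate kinase of red cells and liver) among them, are shown because all 4 hold AGATAA, a sequence that GATA factors can bind, though 3 of the genes were lower in VF and 1 higher. They run from 250 bases before to 50 bases after the start of the gene in RefSeq (GRCm38.p6) and are written 5′ to 3′ on the gene's strand. Capitals mark that sequence on either strand. They also mark CACCC, a sequence that Klf1 can bind, on either strand. The last sequence in capitals is GGAAG, the core bound by ETS factors such as Fli1, again on either strand, and neighbouring matches may adjoin. A match is a description of the letters and not evidence of binding.
Rhd (lower, chr4:134864286-134864585, plus strand): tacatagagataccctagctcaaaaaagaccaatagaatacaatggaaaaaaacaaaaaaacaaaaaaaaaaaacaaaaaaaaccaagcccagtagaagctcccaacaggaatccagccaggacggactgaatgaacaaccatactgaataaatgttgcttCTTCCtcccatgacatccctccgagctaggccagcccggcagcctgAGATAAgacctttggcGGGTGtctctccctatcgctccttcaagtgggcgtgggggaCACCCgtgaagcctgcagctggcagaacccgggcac
Epor (lower, chr9:21963527-21963826, minus strand): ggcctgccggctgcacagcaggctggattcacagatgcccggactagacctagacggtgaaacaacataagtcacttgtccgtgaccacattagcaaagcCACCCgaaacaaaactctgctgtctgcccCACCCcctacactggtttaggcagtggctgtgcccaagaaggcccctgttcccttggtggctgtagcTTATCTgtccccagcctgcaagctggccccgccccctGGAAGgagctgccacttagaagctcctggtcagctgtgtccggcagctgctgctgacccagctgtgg
Pklr (lower, chr3:89135892-89136191, plus strand, the first of 2 listed starts): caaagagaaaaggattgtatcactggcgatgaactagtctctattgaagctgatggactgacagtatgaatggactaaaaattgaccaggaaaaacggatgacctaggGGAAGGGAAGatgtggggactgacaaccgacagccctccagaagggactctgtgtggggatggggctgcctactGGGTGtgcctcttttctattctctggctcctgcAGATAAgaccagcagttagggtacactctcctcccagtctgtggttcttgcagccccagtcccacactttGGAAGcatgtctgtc
Tek (higher, chr4:94739039-94739338, plus strand): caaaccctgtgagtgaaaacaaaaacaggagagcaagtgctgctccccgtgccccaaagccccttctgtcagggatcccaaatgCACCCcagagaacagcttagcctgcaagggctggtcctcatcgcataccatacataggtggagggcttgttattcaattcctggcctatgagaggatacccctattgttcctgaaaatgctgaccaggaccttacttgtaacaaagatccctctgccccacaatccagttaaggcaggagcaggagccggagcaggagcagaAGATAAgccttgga
Of the genes called higher, 1656 had a promoter in the table, and 8.09% of these held AGATAA on either strand. Of the genes called lower 1830 had one, and 7.98% held it, against 6.93% of the 10701 promoters of all tested genes, so that the share was nearly the same in both directions. CACCC stood in 68.8% of the promoters of higher and 59.0% of those of lower genes against 62.3% of all, and GGAAG in 75.5% and 77.7% against 76.0%. AGATAA was found in 4 of 10 promoters of red cell membrane genes called lower, 1 of 10 of heme genes called lower, 4 of 13 of platelet receptors called higher and 2 of 11 of granule cargo genes called higher.

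Surface genes of stem and multipotent cells were higher where called, 11 of 24 with 0 lower (7 higher without VF 1 and 7 without VF 3; median 2.40, 2.68 with the offsets). Cd34, the marker that parts common myeloid progenitors from MEP in the usual sort, stood at 675, 671 and 633 against 4.97, 2.77 and 3.16 CPM (log2 fold change 7.51, adjusted p = 6.7e-05, and 6.75 with the offsets, adjusted p = 0.00011). Procr, the protein C receptor of stem cells, had 5.48, 6.30 and 4.74 CPM and no WT count, at least 147-fold higher, and the adhesion protein Alcam 14.1, 6.63 and 13.2 CPM, at least 299-fold higher. MEP are usually sorted as cells low in Cd34, and no source used here gives the gates of this sort. Of 29 adhesion and chemotaxis receptors 13 were called higher and 1 lower. Pecam1 (CD31) stood at 99.96, 90.8 and 93.3 against 6.63, 6.01 and 2.72 CPM (log2 fold change 4.21, adjusted p = 0.00017, and 3.09 with the offsets, adjusted p = 0.0014). Cxcr4, the receptor that holds progenitors in the marrow, was low in both groups and higher in VF, at 6.34, 7.34 and 7.83 against 0.331, 0.374 and 0.408 CPM (log2 fold change 4.25, adjusted p = 0.0009, and 4.43 with the offsets, adjusted p = 0.00058). The receptor that fell was Adgre5 (CD97), at 29.6, 32.7 and 35.9 against 84.9, 87.5 and 105 CPM (log2 fold change -1.50, adjusted p = 0.00093, and -2.46 with the offsets, adjusted p = 0.00013). None of these genes overlapped between groups.

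Inflammatory genes were at low levels. Of 20 chemokine and cytokine genes 6 were called higher and 0 lower (median 0.92, 1.97 with the offsets), beside the neutrophil and monocyte marker sums given above. Il1b stood at 9.98, 6.63 and 7.74 against 0.166, 0.0934 and 0.170 CPM (log2 fold change 5.80, adjusted p = 0.0004, and 6.53 with the offsets, adjusted p = 0.00021). Csf1, the macrophage growth factor, had 3.56, 5.22 and 7.10 CPM and no WT count, at least 139-fold higher, the chemokine Ccl3 4.24, 2.57 and 3.93 CPM, at least 94.8-fold, and Il6 1.01, 0.373 and 0.973 CPM, at least 20.7-fold. In the fit with VF 3 alone, the stem cell surface, adhesion and cytokine lists had 6, 4 and 3 members called higher.

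Genes that ran against the length trend were read apart in both directions. Of 2667 tested genes under 1500 bases 236 were called higher in VF, and of 2395 genes of 5000 bases or more 103 were called lower. Without WT 50 these counts were 379 and 190, the long genes numbered 171 without WT 52 and 68 without VF 3, and with VF 3 as the only VF library the counts were 22 and 10. Among the short genes, the IgE receptor chain Fcer1a stood at 51.3, 44.9 and 47.8 CPM with 1 WT count, a ratio of 3820 (686 to 151000). The growth factor Fgf3 stood at 33.5, 37.01 and 37.5 against 0.0552, 1.15 and 0.136 CPM (log2 fold change 6.25, adjusted p = 0.0018, and 7.04 with the offsets, adjusted p = 0.0017). The sorting nexin Snx20 stood at 31.9, 30.8 and 34.3 against 0.221, 1.28 and 1.02 CPM, the zinc finger gene Zfp771 at 39.8, 34.6 and 42.98 against 2.21, 0.592 and 1.46 CPM, and the neutrophil protease Prtn3 at 664, 500.4 and 784 against 106, 17.6 and 9.49 CPM. Fcer1a and Prtn3 are themselves markers of mast cells and of granulocyte precursors. Zfp771, Scand1 and Bloc1s4 were at nearly the same level in E12 as in VF (log2 fold changes VF over E12 -0.12, 0.05 and 0.02). Over WT these were 4.80, 4.41 and 5.10. Tmem160 had 0.59 over E12 and 3.997 over WT. Fcer1a, Fgf3 and Prtn3 had larger log2 fold changes over E12, 2.55, 2.11 and 2.57. Of these Fcer1a alone passed on the deposited counts (adjusted p = 0.046).

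Among the long genes that were lower, the collagen chain Col5a1 stood at 0.713, 3.43 and 2.19 against 192, 72.9 and 79.5 CPM (log2 fold change -5.76, adjusted p = 0.00039, and -7.31 with the offsets, adjusted p = 0.00021). The noncoding gene Pvt1, next to Myc, stood at 3.86, 7.23 and 5.31 against 285, 85.2 and 113 CPM (log2 fold change -4.88, adjusted p = 0.00031, and -6.39 with the offsets, adjusted p = 0.00022). Igsf3 stood at 2.81, 5.03 and 6.41 against 38.8, 102 and 101 CPM, the actin nucleator Spire1 at 5.36, 8.16 and 4.95 against 31.9, 46.96 and 88.8 CPM and Mfhas1 at 2.78, 1.90 and 2.23 against 8.34, 19.1 and 32.9 CPM. All 5 were without overlap. Shorter coding transcripts are annotated for Col5a1 (1049 bases), Igsf3 (3876 bases), Spire1 (2059 bases) and Mfhas1 (2549 bases), and for Mrpl17, with a deposited length of 6712 bases, the shortest has 380, so these genes are uncertain as long genes. Mrpl17 stood at 157, 136 and 122 against 1839, 482 and 419.96 CPM, with WT 50 far above the others.

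Genes of protein synthesis and breakdown were lower where called, with few exceptions. Of 78 mitochondrial ribosomal protein genes 65 were called lower and 1 higher, of 78 cytosolic ribosomal protein genes 52 and 0, of 38 proteasome genes 31 and 0, of 23 mitochondrial import genes 17 and 1, and of 54 translation initiation factors 23 and 0. Their medians were -2.60, -2.11, -1.99, -1.96 and -0.89 on the deposited counts and -1.28, -0.56, -1.19, -0.97 and -0.99 with the offsets. The median member lengths were 1053, 696, 1446, 1179 and 2441 bases, and the medians of the first 4 lists were nearer to 0 with the offsets. With limma on the deposited log2 levels the initiation factors counted 10 higher and 18 lower. Values are given here for 3 members of over 2000 bases. Eif2b3, of the exchange factor that resets initiation (4022 bases), stood at 53.7, 55.6 and 48.5 against 333, 312 and 274 CPM (log2 fold change -2.54, adjusted p = 0.00018, and -3.78 with the offsets, adjusted p = 7.8e-05), Psmd9, a proteasome assembly factor (2591 bases), at 58.5, 58.5 and 56.5 against 495, 256 and 249 CPM (log2 fold change -2.53, adjusted p = 0.00057, and -3.36 with the offsets, adjusted p = 0.0011). Mrpl45 (2431 bases) stood at 97.8, 92.7 and 95.4 against 459, 431 and 365 CPM (log2 fold change -2.13, adjusted p = 0.00039, and -2.74 with the offsets, adjusted p = 0.00042). The import gene called higher was Timm29, at 115, 118 and 126 against 9.61, 19.8 and 23.7 CPM (log2 fold change 2.76, adjusted p = 0.00048, and 1.94 with the offsets, adjusted p = 0.00011). All 4 were without overlap. Of 20 cytosolic aminoacyl-tRNA synthetases 5 were called lower and 0 higher (16 lower without WT 50, 3 without any single VF library). With limma on the deposited log2 levels 3 higher and 3 lower were called. Hars stood at 127, 128 and 127 against 339, 770.2 and 613 CPM (log2 fold change -2.17, adjusted p = 0.0011, and -2.15 with the offsets, adjusted p = 6.8e-05). With VF 3 as the only VF library edgeR called 0 of the ribosomal protein genes, cytosolic or mitochondrial.

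Genes of the respiratory chain were lower where called, with 1 exception, and other mitochondrial genes were so in part. Of 36 complex I genes 31 were called lower and 0 higher, and of 38 genes of complexes III and IV and ATP synthase 30 and 1. The median member lengths of these lists were 710 and 675.5 bases, and 29.6% of all tested genes under 1000 bases were called lower. Of 28 tricarboxylic acid cycle and pyruvate dehydrogenase genes 10 were called lower and 0 higher (19 lower without WT 50). Malate dehydrogenase Mdh2 stood at 685, 728 and 665 against 12079, 4323 and 3662 CPM (log2 fold change -3.27, adjusted p = 0.0013, and -2.21 with the offsets, adjusted p = 0.00016), with WT 50 the highest. Mitochondrial carriers were split, with 10 of 44 lower and 5 higher (8 higher without WT 50). The oxodicarboxylate carrier Slc25a21 stood at 1.69, 5.48 and 3.28 against 48.04, 124 and 163 CPM (log2 fold change -5.001, adjusted p = 0.00047, and -5.57 with the offsets, adjusted p = 0.0001). The glutamate carrier Slc25a22 stood at 25.2, 28.3 and 26.8 against 5.13, 7.75 and 9.32 CPM (log2 fold change 1.85, adjusted p = 0.0015, and 1.14 with the offsets, adjusted p = 0.0035). When VF 3 stood alone for VF, edgeR called 0 complex I genes.

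Isozymes of glucose use differed in their shares. Pkm, the pyruvate kinase of most tissues, stood at 630.2, 591 and 669 against 24.6, 58.3 and 47.4 CPM (log2 fold change 3.86, adjusted p = 0.00027, and 3.30 with the offsets, adjusted p = 8.1e-05). Pklr, the form of red cells and liver, stood at 2.59, 6.19 and 3.37 against 38.5, 137 and 147 CPM (log2 fold change -4.73, adjusted p = 0.00053, and -5.31 with the offsets, adjusted p = 0.00011). Per kilobase Pkm made up 99.4% ± 0.314 of pyruvate kinase in VF, 32.7% ± 7.58 in WT and 69.3% ± 7.78 in E12. Hk3, a hexokinase of white blood cells, made up 40.6% ± 2.62 of hexokinase in VF and 0.287% ± 0.322 in WT, and Hk1 52.9% ± 2.86 and 93.97% ± 4.33. The muscle phosphofructokinase Pfkm, also found in red cells, made up 11.9% ± 1.10 and 45.9% ± 6.86, and the liver form Pfkl 67.7% ± 0.451 and 44.8% ± 9.80. The VF shares of these members spread by under 3 percentage points (SD), and none of them overlapped with WT, whereas the share of Hk2 did. As single genes, Hk1 and Pfkl were not called in both fits. Hk1 had a log2 fold change of 0.60 (adjusted p = 0.16) and -0.60 with the offsets (adjusted p = 0.024). Pfkl had 0.39 (adjusted p = 0.55) and -0.53 with the offsets (adjusted p = 0.26). Of 23 glycolysis enzymes 3 were called higher and 7 lower (5 higher without WT 50 or WT 52), and of 20 genes of glucose and lactate exchange 4 and 5 (2 higher without any single E12 or VF library, 3 lower without any single VF library, 7 higher without WT 50). With limma on the deposited log2 levels the glycolysis enzymes counted 9 higher and 4 lower. The glucose transporter Slc2a1 made up 38.98% ± 5.54 of the transporter family in VF and 12.8% ± 13.002 in WT, the WT libraries being far apart. Bsg, the chaperone of lactate transporters, fell, at 277, 312 and 282 against 2931, 1227 and 982 CPM (log2 fold change -2.56, adjusted p = 0.002, and -2.36 with the offsets, adjusted p = 0.0024). In glutamine and one-carbon metabolism 10 of 27 were called lower and 1 higher (6 lower without any single VF library). Asparagine synthetase Asns stood at 80.2, 73.2 and 82.03 against 159.7, 1046 and 1039 CPM (log2 fold change -3.25, adjusted p = 0.0031, and -3.08 with the offsets, adjusted p = 0.0012), with WT 50 the lowest of WT, and glutamate dehydrogenase Glud1, the 1 higher, at 174, 170.4 and 163 against 44.3, 25.5 and 39.9 CPM (log2 fold change 2.21, adjusted p = 0.00047, and 1.23 with the offsets, adjusted p = 0.015; up to 0.053 without VF 1 or WT 51). Of 16 pentose phosphate and NADPH genes 1 was called higher and 2 lower (6 lower without WT 50, and 0 higher without VF 2).

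**Figure D5:**
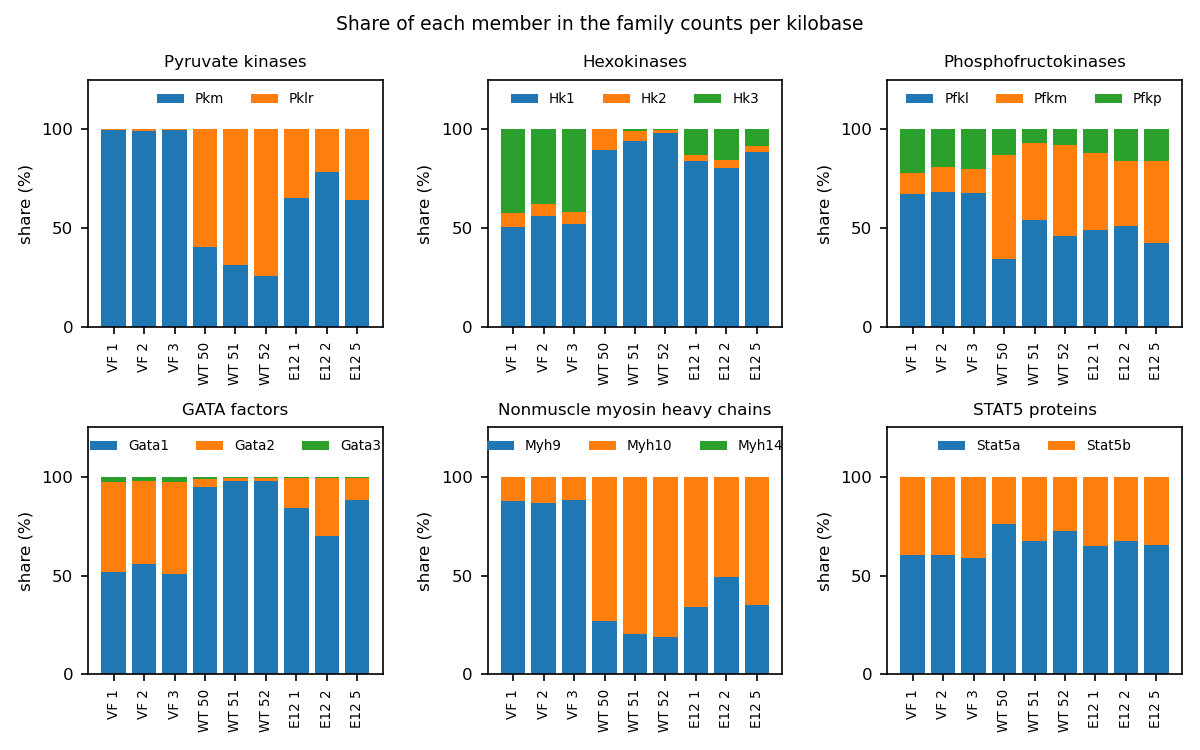
Share (percent) of each member in its family's counts per kilobase, 1 stacked bar for each of the 9 libraries, for 6 families. VF libraries hold nearly all pyruvate kinase as Pkm and most nonmuscle myosin as Myh9, WT libraries most as Pklr and Myh10, and E12 libraries lie between.

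Replication and mitosis genes called in both fits were lower in VF. Of 44 replication genes 22 were called lower and 0 higher (median -1.01, -1.29 with the offsets), and of 42 mitosis genes 16 and 0 (median -0.49, -1.26; 8, 10 and 8 lower without VF 1, VF 2 and VF 3). With limma on the deposited log2 levels the counts were 5 higher and 14 lower for replication, and 6 higher and 10 lower for mitosis. The clamp loader Rfc4 stood at 94.97, 99.2 and 81.4 against 1010.2, 596 and 518 CPM (log2 fold change -2.95, adjusted p = 0.00037, and -1.94 with the offsets, adjusted p = 8.8e-05). The spindle checkpoint gene Mad2l1 stood at 97.3, 99.6 and 89.1 against 266, 309 and 263 CPM (log2 fold change -1.55, adjusted p = 0.00077, and -1.26 with the offsets, adjusted p = 0.00026). Both were without overlap. Of 15 cell cycle inhibitors 3 were called higher and 0 lower (6 higher without WT 50). Rbl2 (p130), which holds cells at rest, stood at 69.3, 82.997 and 79.1 against 6.63, 15.9 and 19.7 CPM (log2 fold change 2.45, adjusted p = 0.0011, and 1.20 with the offsets, adjusted p = 0.0041). The antiproliferative gene Btg2 stood at 81.7, 93.9 and 75.8 against 8.39, 14.6 and 16.3 CPM (log2 fold change 2.67, adjusted p = 0.0017, and 1.86 with the offsets, adjusted p = 0.0044). Counts of clustered histone genes depended on the scaling. On the deposited counts 18 of 63 were lower and 1 higher, in both fits 1 and 0, and with limma on the deposited log2 levels 49 and 0. The medians of the first fit and of the fit with offsets were -1.54 and 0.10. Replication-dependent histone transcripts lack poly(A) tails, and the library method copies RNA from those tails.

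Survival genes were mixed. Of 19 genes of the BCL2 family 4 were called higher and 5 lower (2 and 2 without any single VF library). Bcl2 itself stood at 118, 106 and 111 against 3.04, 9.50 and 6.32 CPM (log2 fold change 4.14, adjusted p = 0.00032, and 2.74 with the offsets, adjusted p = 0.00064), without overlap. The death effector Bax stood at 88.8, 84.5 and 79.1 against 961, 297 and 244 CPM (log2 fold change -2.57, adjusted p = 0.0037, and -1.02 with the offsets, adjusted p = 0.00086). Bad stood at 36.1, 35.03 and 35.8 against 289.9, 87.8 and 70.96 CPM (log2 fold change -2.07, adjusted p = 0.0084, and -1.40 with the offsets, adjusted p = 0.016; log2 fold change -1.29 without WT 50). Of 29 genes co-mutated in myeloproliferative neoplasms 6 were called higher and 5 lower (1 lower without any single VF library). With limma on the deposited log2 levels 16 higher and 2 lower were called. Runx1 stood at 120.5, 108 and 118 against 14.8, 17.3 and 30.4 CPM (log2 fold change 2.47, adjusted p = 0.00056, and 1.11 with the offsets, adjusted p = 0.0015). The DNA methyltransferase Dnmt3a was at 124, 121 and 116 against 42.8, 52.2 and 48.6 CPM but, in a gene of 9947 bases, passed only on the deposited counts (log2 fold change 1.33, then -0.17). Of 38 interferon response genes 5 were called higher and 4 lower (8 lower without WT 52), with Ifit2 at 34.8, 41.8 and 33.9 against 2.93, 5.95 and 1.63 CPM and Isg20, an exonuclease, at 20.7, 24.6 and 18.5 against 1046, 309.5 and 226 CPM. Of 34 autophagy genes 3 were called higher and 6 lower (6 and 12 without WT 50, 1 higher without VF 1 or VF 2, 2 lower without any single VF library). Pink1, a kinase that marks damaged mitochondria, stood at 92.5, 57.95 and 48.9 against 22.2, 23.7 and 22.2 CPM (log2 fold change 1.55, adjusted p = 0.0038, and 1.05 with the offsets, adjusted p = 0.037), and its call with the offsets was lost without E12 1, E12 2, VF 1, VF 2, WT 51 or WT 52 (adjusted p up to 0.18). The autophagy receptor Optn stood at 36.8, 54.1 and 39.98 against 87.4, 161 and 174 CPM (log2 fold change -1.69, adjusted p = 0.0024, and -2.10 with the offsets, adjusted p = 0.00013). Several lists had counts in both fits not far from the background of 15.8% higher and 16.8% lower, or below it. These were the interferon, BCL2 family, co-mutated, pentose phosphate, glucose and lactate exchange and mitochondrial carrier genes. Autophagy genes were near it for lower calls and below it for higher ones. Cell cycle inhibitors were not far from it for higher calls. In other lists, counts of 0 to 2 moved by at most 4 genes when 1 library was left out.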

How the data were processed

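Bone marrow MEP were sorted by flow cytometry, RNA was taken with a PicoPure kit and libraries were made with Smart-Seq2, per the labels. The authors deposited whole-number counts per gene with a gene length, and a table of log2 expression levels whose near-equal quartiles across libraries point to between-library normalization. The submitters' processing notes name STAR, limma, GRCm38 and mm10. The sources used here give neither their roles and versions nor the counting tool. Total counts were 19256431 to 39736096 in VF and WT, so error in well-counted genes comes mainly from spread between the 3 libraries per group.

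Groups came from the labels. The deposited counts of all 9 libraries were fitted in R 4.3.3 with edgeR 4.0.16 (filterByExpr, TMM factors, quasi-likelihood test, VF minus WT, Benjamini-Hochberg adjustment over 13608 genes). A second fit added offsets from a lowess curve (span 0.3) of each library's log expression on gene length. CPM use TMM factors, SE is the absolute log2 fold change over the square root of F, and family shares use counts per kilobase. Alternatives used DESeq2 1.42.0, limma 3.58.1 (voom, and the deposited log2 levels), other factors and filters, and fewer libraries. Scripts were tested on simulated data. Summaries used Python 3.11.15, pandas 2.3.3, scipy 1.17.1 and matplotlib 3.10.9. Promoters are from RefSeq.

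The comparison and the gene lists were chosen with earlier results of these data known. Genes were named by a rule: the 15 per direction with the largest fold change among those called in both fits, with a mean CPM of at least 20 in the higher group and no overlap; the 10 per direction against the length trend; up to 4 per list by smallest p; fixed pathway genes and families; sex-linked genes; and 3 per direction in each length class. Genes with no symbol in the table (8) were kept by identifier. Some genes that met this rule are not reported here.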

Additional observations from a re-analysis of the deposited data

How the results depend on the processing

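No paired analysis was possible because the replicate numbers of VF (1, 2 and 3) and WT (50, 51 and 52) share none. With an added fold threshold of 2, edgeR called 3812 genes, 2259 higher and 1553 lower, and the length offsets gave 2487 higher. VF 3 as the only VF library was an alternative chosen after seeing the data, in which the lone library is assumed to vary like the others. It gave 735 calls, 637 higher and 98 lower, with offsets 1353, 496 and 857, in both fits 389 and 97, and against the length trend 22 short genes higher and 10 long genes lower. Stricter lengths left 82 short genes higher (under 1000 bases) and 18 long genes lower (over 8000 bases). Leaving out 1 library gave 4753 to 8382 calls (2792 to 4593 higher, 1961 to 3789 lower), with offsets 4677 to 7961 (1695 to 3332 higher, 2982 to 4629 lower), in both fits 1468 to 2979 higher and 1648 to 3261 lower, and against the trend 164 to 379 short and 68 to 190 long genes. With the length offsets 4 genes of the text that passed in at least 1 of the fits changed sign: Dnmt3a (-0.17), Hk1 (-0.60), Stat5a (-0.40) and Tal1 (-0.30). Pfkl, called in neither, went from 0.39 to -0.53. Of 3271 values of named genes under an alternative, 3171 kept their direction and their side of the threshold, 85 lost the call and 11 gained one. The cause was not tested. For a gene with no count in WT, the assumed 3 counts over the group cover counting error only. They do not cover a transcript that a library failed to capture.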
